A study of Arabidopsis thaliana with 12 samples.

Results

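The genes described here are the potassium channels and transporters of Arabidopsis thaliana, taken as the genes whose description in the deposited array annotation contains the word potassium. The word occurs for 40 of the 22746 non-control probe sets, each of which names a single locus. They stand for 39 genes of the 21030 with a single-locus probe set, because KEA2 has 2 probe sets and the one with the higher mean signal was kept. The 39 were grouped by hand. They comprise 9 Shaker-type channels, 5 tandem-pore or Kir-like channels, 3 cyclic nucleotide-gated channels, 10 KUP/HAK/KT transporters, 6 KEA antiporters and 4 other carriers. The last 2, KAB1 and FIP2, were classed as regulators, and for FIP2 no role in potassium transport is shown here. The description also takes in genes whose main substrate may be another cation, such as the cyclic nucleotide-gated channels and the NHD carriers.

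Potassium is the most abundant cation of plant cells and serves as their main osmoticum. It enters roots through the channel AKT1 and high-affinity carriers of the KUP/HAK/KT family, is loaded into the xylem by outward channels such as SKOR, circulates in the phloem with the help of AKT2, and moves in and out of guard cells through KAT1, KAT2 and GORK to open and close stomata. Inside the cell, KEA and NHX antiporters exchange it for protons across the membranes of plastids, vacuoles and the Golgi system.

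RNA was hybridised to 12 ATH1 GeneChips of Affymetrix, with pdx1.3 leaves, WT leaves, pdx1.3 roots and WT roots on 3 arrays each. The pdx1.3 knockout lacks a subunit of the pyridoxal phosphate synthase that makes vitamin B6, and both genotypes are of the Col-0 ecotype. All seedlings were 10 days old and had grown on Murashige and Skoog medium of reduced strength with 1% sucrose and without vitamin B6, in days of 16 h light at 22 °C and nights of 8 h at 18 °C, so the medium supplied the vitamin to no group. The series design calls the 3 samples of a group biological replicates and names WT as the control of pdx1.3 in each organ. A single mutant line without a rescued line was measured, so loss of PDX1.3 and any other difference of that line cannot be told apart.

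PDX1.3 itself bears out the sample titles. Its MAS5 signal, the scaled intensity that the authors deposited for each probe set, was 40.5, 38.2 and 50.5 in pdx1.3 leaves, against 591, 942 and 935 in WT leaves. In roots it was 116, 95.8 and 82.1 in pdx1.3, against 264, 282 and 282 in WT. The log2 change was -3.80 in leaves (SE 0.18, limma, adjusted p = 7.38e-07) and -1.37 in roots (SE 0.18, adjusted p = 0.00243). The genotype entry among the sample characteristics reads the opposite of the title for every sample, and groups follow the titles. Between 64.3% and 72.8% of probe sets were called present per array, and replicates of a group correlated at 0.968 to 0.992. The 5 mesophyll markers summed to signals of 22542 to 25095 in pdx1.3 leaves and 24142 to 29136 in WT leaves, against 406 to 635 in pdx1.3 roots and 651 to 987 in WT roots. The 8 root markers summed to 1731 to 2261 in pdx1.3 roots and 1861 to 2510 in WT roots, and at most 3 of them were called present on any leaf array.

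Changes below are differences of log2(signal + 16), which understates changes of dim genes, and a gene is said to have risen or fallen where limma gave a Benjamini-Hochberg adjusted p under 0.05 over all 22746 probe sets. In whole organs, fewer cells of a type and less RNA per cell cannot be told apart. Signals of different genes come from different probes and are not compared with one another. Of the 39 genes, 21 were called present on all 12 arrays and 31 on all arrays of at least 1 group. The pollen channel SPIK, AKT5, KCO3, TPK2, NHD2, CHX13 and CAX9 were called present on no array, so their signals are not told from background.

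In leaves, 8 of the 39 potassium genes differed between pdx1.3 and WT, which is 20.5%, beside 7.22% of all probe sets. The phloem channel AKT2, the transporters KUP2, KUP3, KUP6 and KUP10, the cyclic nucleotide-gated channel CNGC1 and the antiporter KEA5 rose in pdx1.3 leaves, and the guard-cell channel KAT2 fell. The 7 that rose are 17.9% of the genes, beside 4.7% of all probe sets, and the 1 that fell is 2.56%, beside 2.51%. With each array centred on its median, 4 rose (10.3%, beside 3.69%) and 1 fell (2.56%, beside 3.7%), and the calls of CNGC1, KUP10 and KEA5 were lost. In 16 genes the pdx1.3 and WT leaf arrays did not overlap, 14 with higher and 2 with lower signals in pdx1.3, which is 41%, beside 24.6% of all probe sets (14.4% higher and 10.2% lower). Of the 14, CAX9 was called absent on all leaf arrays, so its order is one of background signals. SKOR and KUP10 were each called present on only 1 leaf array. An unadjusted p under 0.05 was also reached by 16 genes (41%), CAX9, SKOR and KUP10 among them, beside 21.2% of all probe sets. The median log2 change was 0.0566 over the 39 genes and 0.0112 over all probe sets. AKT2 alone passed with a change of at least 2-fold, beside 480 of all 22746 probe sets.

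**Figure D1:**
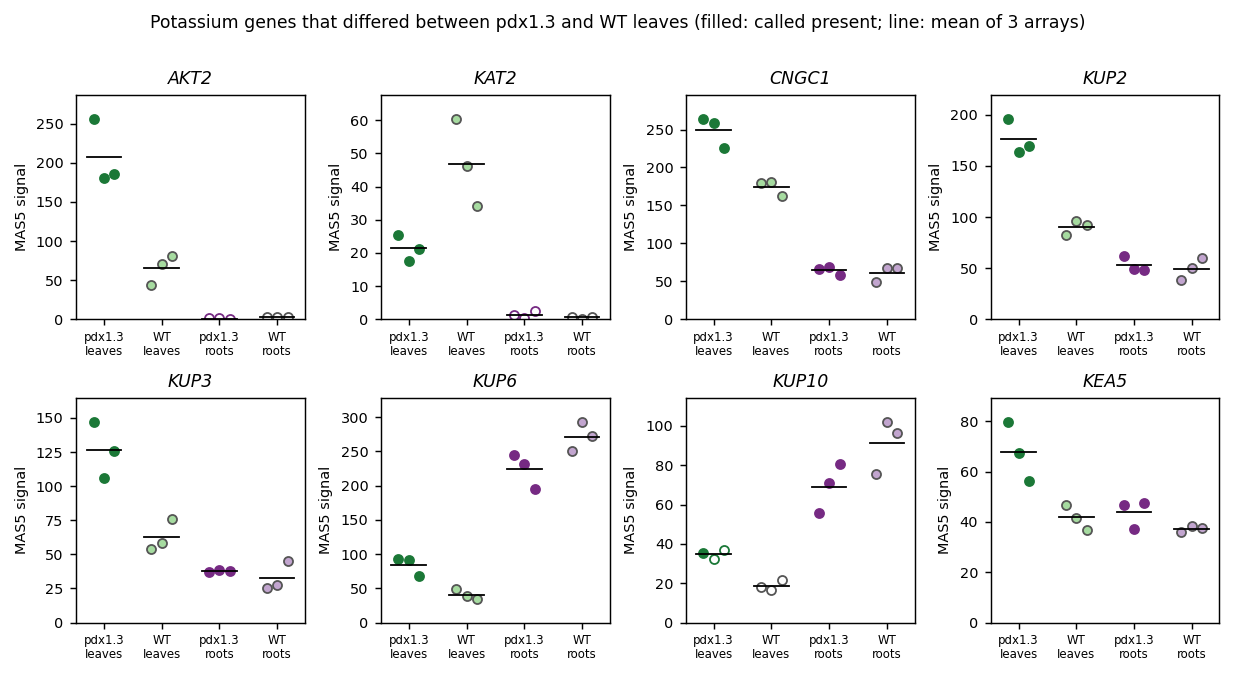
MAS5 signal (vertical axes, linear, starting at 0) of the 8 potassium genes that differed between pdx1.3 and WT leaves, by group along the horizontal axes. Points are single arrays, filled where the probe set was called present, and bars are means of 3 arrays; in leaves the pdx1.3 points lie above all WT points in 7 panels and below them for KAT2, with AKT2 at 181 to 256 against 43.5 to 80.6.

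AKT2 (AT4G22200), a weakly rectifying channel of phloem and mesophyll, had signals of 256, 181 and 186 in pdx1.3 leaves, against 43.5, 70.9 and 80.6 in WT leaves. Every pdx1.3 leaf array was far above every WT leaf array. The means were 208 ± 41.8 in pdx1.3 and 65 ± 19.2 in WT (SD, n = 3 arrays each). The log2 change was 1.48 (SE 0.18, limma adjusted p = 0.000526), a 2.79-fold rise. In the authors' deposited table the pairwise comparisons called an increase in 9 of 9 pairs of a pdx1.3 and a WT leaf array. AKT2 was called absent on all 6 root arrays.

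KAT2 (AT4G18290), an inward channel of guard cells, moved the other way. Its signals were 25.4, 17.5 and 21.2 in pdx1.3 leaves, against 60.4, 46.1 and 34.3 in WT leaves, so that the groups did not overlap although the WT arrays spread widely. The log2 change was -0.74 (SE 0.14, limma adjusted p = 0.00658), and it was -1.08 with a constant of 1 before log2, where the call was lost (adjusted p = 0.11). The authors' deposited table lists a decrease in 8 of 9 array pairs.

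The other guard-cell channels did not pass the test. KAT1, the closest relative of KAT2, had signals of 76.3, 49.2 and 58.1 in pdx1.3 leaves, against 95.7, 64.9 and 62.8 in WT leaves, and these overlapped (log2 change -0.23, SE 0.16, limma adjusted p = 0.464). GORK, the outward channel of guard cells, had 12.1, 10.6 and 6.14 in pdx1.3 leaves, against 19.1, 20.8 and 13.4 in WT leaves, which did not overlap (log2 change -0.40, adjusted p = 0.115). The sum of 5 guard-cell and stomatal markers was 170 to 227 in pdx1.3 leaves and 216 to 248 in WT leaves, with 4 or 5 of the 5 called present on each leaf array. Among them MYB60, a guard-cell transcription factor, fell (61.3 ± 5.07 in pdx1.3 leaves and 102 ± 4.1 in WT leaves, SD, n = 3, log2 change -0.61, limma adjusted p = 0.00453) and the other 4 did not pass the test. These 4 did not share a direction. FAMA had 40.6 to 66.5 in pdx1.3 leaves and 36.6 to 45.9 in WT leaves, which overlapped. SLAC1 had 18.6 to 19.7 in pdx1.3 leaves and 22.9 to 25.2 in WT leaves, without overlap. HT1 and TMM overlapped. The part of guard-cell number in the KAT2 value was not tested. The sum of 5 vascular markers was 548 to 620 in pdx1.3 leaves and 418 to 511 in WT leaves. None of these 5 passed the test. SUC2, the phloem companion-cell sucrose carrier, had signals of 468 to 503 in pdx1.3 leaves and 313 to 419 in WT leaves. It was the only vascular marker whose groups did not overlap. APL had 20.2 to 41.9 in pdx1.3 leaves and 20.9 to 31.2 in WT leaves, and CESA4, IRX3 and XCP1 overlapped as well. The part of phloem amount in the AKT2 value was not tested.

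The remaining 5 Shaker-type genes gave no call in leaves. SKOR, which loads potassium into the xylem, had 19.1, 12.1 and 16.1 in pdx1.3 leaves, against 5.32, 7.61 and 7.76 in WT leaves, where it was called absent on every array. The groups did not overlap, and the test gave an adjusted p of 0.129 (limma, log2 change 0.47). KC1, a silent subunit that modifies AKT1, had 10.7, 21 and 11.3 in pdx1.3 leaves, against 70.6, 14.6 and 13.9 in WT leaves, and AKT1 had 35, 30.6 and 30.4 in pdx1.3 leaves, against 57.6, 19.1 and 25.8 in WT leaves. For both channels, which are strongest in roots here, a single WT leaf array, replicate 1, held the highest leaf value. The same array also had the highest leaf signal of AHA2, a proton pump gene strong in roots (1028, against 420 and 385 on the other WT leaf arrays), and of the root hair marker COBL9 (19.4, the only present call on a leaf array). The carrier CHX17, strong in roots, was likewise highest there among leaf arrays (58, against 17.1 and 12.3 on the other WT leaf arrays). The sum of the 8 root markers was lowest on this array, at 200, against 216 to 298 on the other leaf arrays. PHO1 (9.88) and SCR (140), listed as root markers and called present on every leaf array, were also lowest there. SCR made up most of each leaf sum, and its leaf signals (140 to 239) were not below its root signals (119 to 177). The sum therefore cannot show the amount of root RNA in a leaf array. The part of root RNA in the leaf values of KC1, AKT1, AHA2, CHX17 and COBL9 was not tested.

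Among the KUP/HAK/KT transporters, which carry potassium together with protons in uptake, cell expansion and hormone transport, 4 of 10 rose in pdx1.3 leaves and none fell, beside 4.7% and 2.51% of all probe sets. The median log2 change of the 10 was 0.45, beside 0.0112 over all probe sets, and 9 of the 10 had a change above 0.

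KUP2 (AT2G40540), known from a mutant with short shoot cells, had 196, 164 and 169 in pdx1.3 leaves, against 82.6, 96 and 92.5 in WT leaves. KUP3 (AT3G02050) had 147, 106 and 126 in pdx1.3 leaves, against 53.6, 58 and 76.1 in WT leaves. KUP6 (AT1G70300), which acts with KUP8 in potassium efflux and in abscisic acid responses, had 92.9, 91.2 and 67.5 in pdx1.3 leaves, against 48.6, 38.2 and 34.1 in WT leaves. In all 3 genes each pdx1.3 leaf array was above each WT leaf array. The log2 changes were 0.85 for KUP2 (SE 0.14, limma adjusted p = 0.00378), 0.86 for KUP3 (SE 0.17, adjusted p = 0.0107) and 0.82 for KUP6 (SE 0.15, adjusted p = 0.00501). These correspond to rises of 1.81-fold, 1.81-fold and 1.77-fold. The authors' deposited table lists an increase in 9, 9 and 8 of 9 array pairs for KUP2, KUP3 and KUP6.

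KUP10 (AT1G31120) had 35.3, 32.2 and 36.7 in pdx1.3 leaves, against 17.9, 16.6 and 21.5 in WT leaves. The groups did not overlap, but each WT leaf array had an absent call, and the probe set was present on only 1 of the 3 pdx1.3 leaf arrays. The WT level is therefore a bound. The estimated rise in pdx1.3 leaves was 1.46-fold (log2 change 0.55, 95% interval 0.23 to 0.87, limma adjusted p = 0.0405). The bound on the fold, which leaves out the spread between arrays, equals this estimate. Such bounds set the mean of the brighter group against, per array of the dimmer group, the higher of its own signal and the lowest signal of any probe set called present, on the log2(signal + 16) scale. With a constant of 64 the change of KUP10 was 0.26, and the call was lost (adjusted p = 0.114).

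The other 6 KUP/HAK/KT genes did not pass the test in leaves. KUP11 had 218, 194 and 182 in pdx1.3 leaves, against 123, 155 and 141 in WT leaves, with no overlap (log2 change 0.46, limma adjusted p = 0.105). KUP4, a transporter needed for root hair growth, had 165, 107 and 104 in pdx1.3 leaves, against 85.2, 87.3 and 88.3 in WT leaves, also without overlap (log2 change 0.43, adjusted p = 0.192). HAK5, the high-affinity uptake carrier induced by potassium shortage, averaged 18.5 ± 8.22 in pdx1.3 leaves and 10.4 ± 1.14 in WT leaves (SD, n = 3) and overlapped. KUP1, KUP5 and KUP7 had log2 changes of 0.079, 0.022 and -0.028.

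Among the KEA antiporters, KEA5 (AT5G51710), of the Golgi and trans-Golgi system, rose. It had 79.7, 67.2 and 56.4 in pdx1.3 leaves, against 46.8, 41.7 and 36.8 in WT leaves, without overlap (log2 change 0.53, SE 0.14, limma adjusted p = 0.0359). KEA3, the antiporter of thylakoid membranes, had the larger change but also the larger spread. Its signals were 296, 252 and 167 in pdx1.3 leaves, against 96.3, 164 and 128 in WT leaves, and the lowest pdx1.3 array lay just above the highest WT array (log2 change 0.80, SE 0.23, adjusted p = 0.0602). KEA3 did not pass in most alternative fits (highest adjusted p = 0.336, without both leaf arrays numbered 1). It passed in 4. Among these were the fits with a constant of 64 (0.0348) and with only probe sets present on all arrays of a group (0.0354). The others were those without pdx1.3 leaf replicate 3 (0.0303) and without WT leaf replicate 2 (0.0487).

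KEA1, of the chloroplast envelope, had 483, 529 and 586 in pdx1.3 leaves, against 412, 452 and 385 in WT leaves, with no overlap and no call (log2 change 0.34, limma adjusted p = 0.199). KEA2, its close partner in the same membrane, had 159, 193 and 147 in pdx1.3 leaves, against 167, 107 and 96.9 in WT leaves (log2 change 0.41, adjusted p = 0.299). The second probe set of KEA2 was dim, at 3.59 ± 2.49 in pdx1.3 leaves and 1.61 ± 1.27 in WT leaves (SD, n = 3), and gave no call. KEA4 and KEA6 had changes of 0.21 and -0.047. Of the 6 KEA genes 5 had changes above 0, with a median of 0.37.

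The channel CNGC1 (AT5G53130), a cation channel gated by cyclic nucleotides, had 264, 259 and 225 in pdx1.3 leaves, against 179, 181 and 163 in WT leaves. The groups did not overlap, and the log2 change was 0.48 (SE 0.13, limma adjusted p = 0.044). CNGC2, a calcium-permeable channel of immune signalling, had 391, 265 and 302 in pdx1.3 leaves, against 379, 259 and 281 in WT leaves, and CNGC5 had 124, 162 and 156, against 194, 172 and 149. Both overlapped, with log2 changes of 0.057 (95% interval -0.30 to 0.41) and -0.20 (-0.54 to 0.14).

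None of the 5 tandem-pore or Kir-like channels passed the test in leaves. TPK3 had 153, 118 and 94.5 in pdx1.3 leaves, against 67.9, 96.8 and 80.9 in WT leaves (log2 change 0.49, limma adjusted p = 0.124). TPK5 averaged 33 ± 5.87 in pdx1.3 leaves and 22.8 ± 2.06 in WT leaves (SD, n = 3), and its groups did not overlap (adjusted p = 0.255). The other carriers and the regulators also gave no call. NHD1, a sodium and proton antiporter of chloroplasts, averaged 110 ± 18.2 in pdx1.3 leaves and 118 ± 8.35 in WT leaves, and KAB1, the beta subunit of Shaker channels, averaged 442 ± 60.9 in pdx1.3 leaves and 496 ± 33.1 in WT leaves (SD, n = 3).

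The calls of CNGC1, KUP10 and KEA5 were less steady than the other 5 when single arrays were left out. In the 12 fits that each left out 1 array, AKT2, KAT2, KUP2, KUP3 and KUP6 were called every time, KEA5 in 6, KUP10 in 3 and CNGC1 in 2, with the highest adjusted p at 0.12, 0.116 and 0.129. Without pdx1.3 leaf replicate 1, or without WT root replicate 2, the count of called genes was 5.

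**Figure D2:**
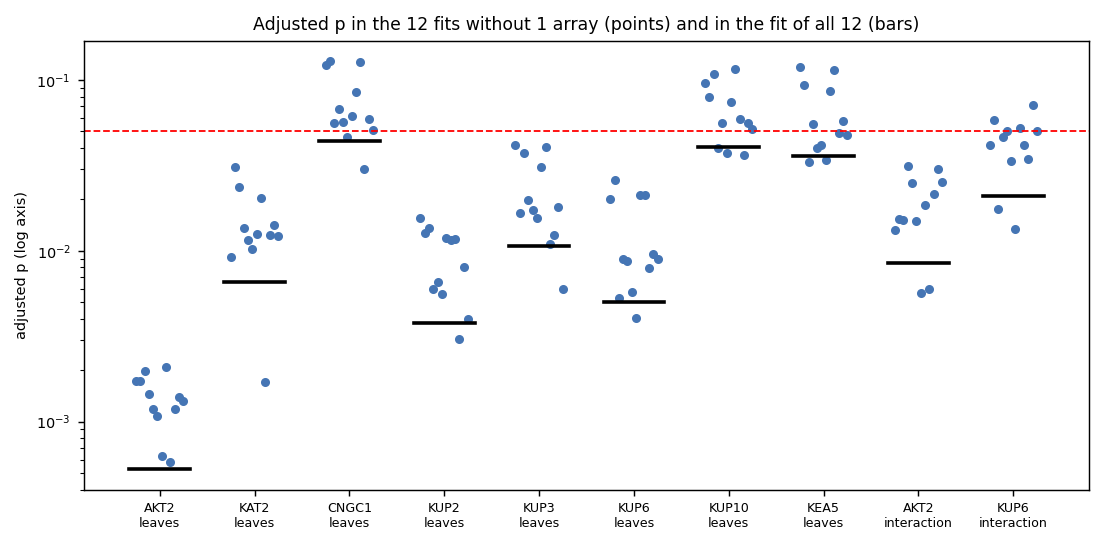
Adjusted p (vertical axis, log scale) of the 8 leaf changes and of the 2 interactions past the threshold. Each point is 1 of the 12 fits without 1 array, the bars are the fit of all 12 arrays, and the dashed line marks 0.05; the points of AKT2, KAT2, KUP2, KUP3 and KUP6 in leaves stay below the line, and those of CNGC1, KUP10, KEA5 and the KUP6 interaction lie on both sides of it.

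In roots, no potassium gene passed the test between pdx1.3 and WT, beside 0.809% of all probe sets. At an unadjusted p under 0.05 limma gave 3 of 39 (7.69%), beside 6.85% of all probe sets, and 7 genes did not overlap (17.9%), beside 11.1%. Of these 7, SPIK, AKT2 and KAT1 were called absent on all 6 root arrays, so their order is one of background signals, and the other 4 were AKT1, TPK3, KUP6 and HAK5. The median log2 change was 0.00774 over the 39 genes and 0.0109 over all probe sets. The 3 genes with an unadjusted p under 0.05, TPK3, HAK5 and KUP10, are named because the count is small, after their values were seen.

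TPK3 had 83.6, 82.6 and 65 in pdx1.3 roots, against 40.5, 50.6 and 54.2 in WT roots, without overlap (log2 change 0.53, SE 0.18, limma adjusted p = 0.333). Its change in leaves was 0.49. HAK5 had 9.97, 4.87 and 13.8 in pdx1.3 roots, against 17.7, 20.4 and 16.1 in WT roots, also without overlap (log2 change -0.43, SE 0.17, adjusted p = 0.559). HAK5 was called present on 1 of the 3 pdx1.3 root arrays and on all 3 WT root arrays. KUP10 had 55.6, 71.2 and 80.7 in pdx1.3 roots, against 75.6, 102 and 96.4 in WT roots, which overlapped (log2 change -0.34, adjusted p = 0.667).

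The root uptake channel AKT1 had 210, 211 and 215 in pdx1.3 roots, against 237, 270 and 271 in WT roots. Its groups did not overlap, and the log2 change was -0.27 with a 95% interval of -0.73 to 0.19 (limma adjusted p = 1). Its partner KC1 averaged 183 ± 19.4 in pdx1.3 roots and 222 ± 18.9 in WT roots, and SKOR 11.1 ± 7.16 in pdx1.3 roots and 14.9 ± 4.88 in WT roots (SD, n = 3). The changes of the 39 genes in roots lay between -0.43 and 0.53.

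**Figure D3:**
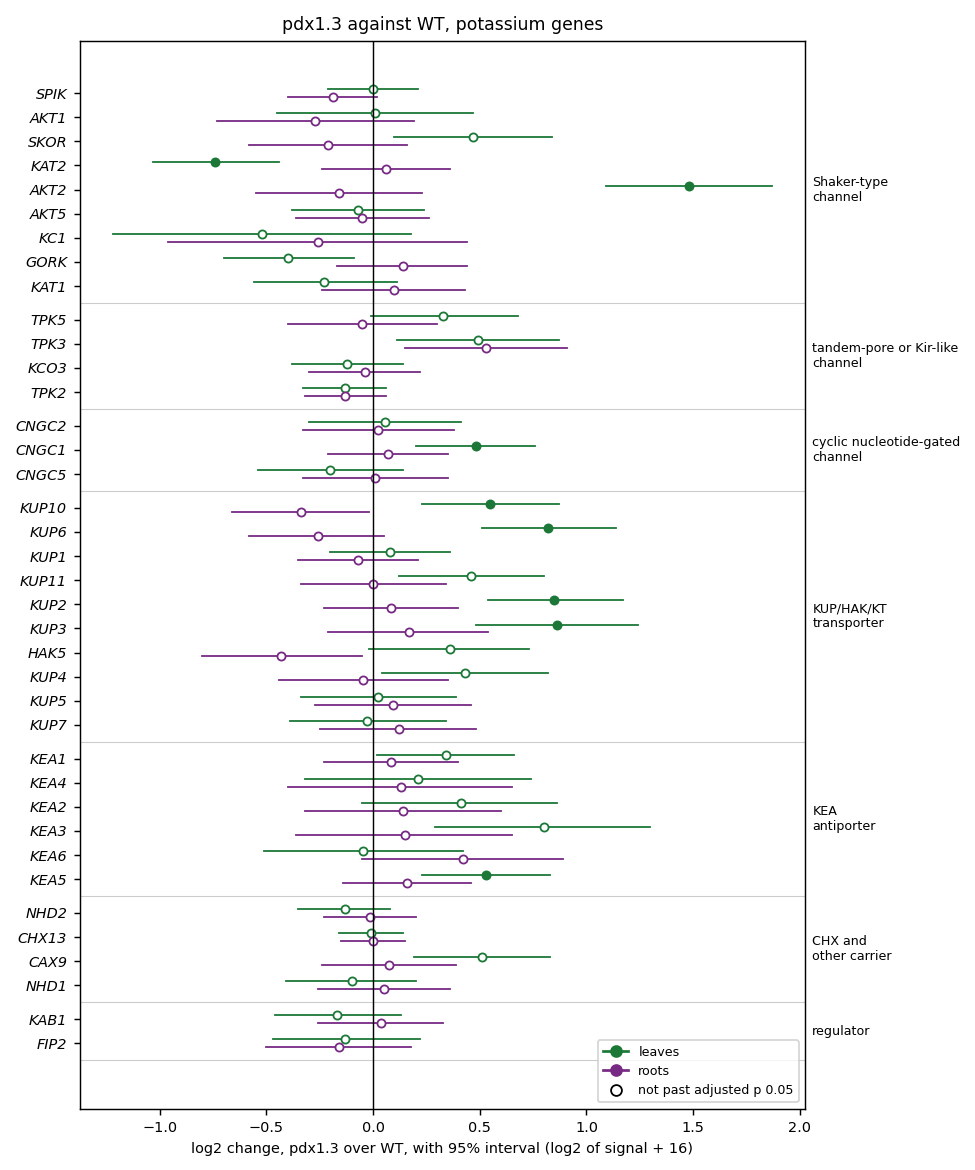
Log2 change of pdx1.3 over WT (horizontal axis, log2 of signal + 16) in leaves and in roots for the potassium genes, grouped by role down the page. Points are limma estimates with 95% intervals, filled where the adjusted p was under 0.05; 8 leaf points are filled, from -0.74 for KAT2 to 1.48 for AKT2, and no root point is.

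Whether the pdx1.3 change itself differed between leaves and roots was tested with the interaction, the leaf change minus the root change. It passed for 2 of 39 genes (5.13%), beside 1.87% of all probe sets, and 10 genes had an unadjusted p under 0.05 (25.6%), beside 13.2%. AKT2 had a leaf change of 1.48 and a root change of -0.16, a difference of 1.64 (SE 0.25, limma adjusted p = 0.00853). The root signals of AKT2 were all called absent, 0.461 to 1.74 in pdx1.3 and 2.74 to 3.43 in WT, so its root change is one of background signals and the size of the difference depends on the constant, at 2.68 with a constant of 1. KUP6 had a leaf change of 0.82 and a root change of -0.26, a difference of 1.09 (SE 0.21, adjusted p = 0.021). Its root signals were 245, 231 and 195 in pdx1.3, against 250, 293 and 272 in WT, all called present and without overlap. The KUP6 interaction was called in 7 of the 12 fits that left out 1 array, and the losses were without replicate 2 of any of the 4 groups or without WT root replicate 3 (highest adjusted p = 0.071).

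KUP10 (difference 0.89, limma adjusted p = 0.0522) and KAT2 (-0.80, adjusted p = 0.0578) came next and did not pass. For KUP2, KUP3, CNGC1 and KEA5 the differences were 0.77, 0.69, 0.41 and 0.37 with adjusted p of 0.0842, 0.214, 0.363 and 0.465, so a call in leaves with none in roots was not shown to differ between organs for these 4 genes.

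The organ comparison describes where each gene is strongest. Between leaves and roots, 23 of the 39 genes differed in pdx1.3 (59%, beside 54.7% of all probe sets) and 22 in WT (56.4%, beside 52.5%), shares close to those of all probe sets. In pdx1.3, 15 were higher in leaves (38.5%, beside 22.2%) and 8 lower (20.5%, beside 32.4%). In WT, 13 were higher in leaves (33.3%, beside 20.9%) and 9 lower (23.1%, beside 31.7%). The split of all probe sets depends on the scaling. With each array centred on its median, 17 genes were higher in leaves (43.6%, beside 29.6%) and 8 lower (20.5%, beside 28.1%) in pdx1.3, and 15 were higher (38.5%, beside 34.8%) and 8 lower (20.5%, beside 25.4%) in WT. Differences of at least 2-fold numbered 15 in pdx1.3 (38.5%, beside 28.3%) and 12 in WT (30.8%, beside 25.5%). In both genotypes KAT1, KAT2 and AKT2 were called present on all leaf arrays and absent on all root arrays, and no gene showed the reverse. Centring each array on its median moved the median of all probe sets to 0.119 in WT, against -0.0478 as deposited. The organ differences of AKT1, AKT2, KAT1, KAT2, KC1, CNGC1, CNGC2, KEA1, KEA3, KEA4, KEA6, KUP4, KUP6 and KUP10 that passed the test kept their direction and call with that centring.

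The Shaker-type channels differed in where they were strong. The bounds for leaves over roots, which leave out the spread between arrays, were 12.4-fold in pdx1.3 and 4.16-fold in WT for AKT2. They were 4.3-fold and 5.17-fold for KAT1, and 2.08-fold and 3.59-fold for KAT2. KAT1, the guard-cell channel, averaged 61.2 ± 13.8 in pdx1.3 leaves and 74.5 ± 18.5 in WT leaves (SD, n = 3). In the roots of both genotypes the 5 guard-cell markers summed to 8.68 to 17.8. AKT1 ran the other way, with 32 ± 2.59 in leaves and 212 ± 2.97 in roots of pdx1.3, and 34.2 ± 20.6 in leaves and 259 ± 19.8 in roots of WT (log2 differences -2.25 and -2.53). KC1 did likewise, with 14.3 ± 5.77 in leaves and 183 ± 19.4 in roots of pdx1.3, and 33 ± 32.6 in leaves and 222 ± 18.9 in roots of WT (-2.73 and -2.47). GORK, which also serves root hairs, averaged 9.62 ± 3.09 in leaves and 37.2 ± 3.93 in roots of pdx1.3, and 17.8 ± 3.87 in leaves and 32.4 ± 5.38 in roots of WT.

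The chloroplast antiporters KEA1 and KEA3 were strongest in leaves. KEA1 averaged 533 ± 51.7 in leaves and 43.2 ± 3.48 in roots of pdx1.3, and 417 ± 33.7 in leaves and 40.6 ± 11.4 in roots of WT (SD, n = 3, log2 differences 3.21 and 2.95). KEA3 averaged 238 ± 65.4 in leaves and 20.7 ± 7.35 in roots of pdx1.3, and 129 ± 33.9 in leaves and 16.9 ± 4.94 in roots of WT. In WT it was absent on all root arrays, and the estimate of 4.37-fold higher in leaves takes the root signals at face value. KEA2, of the same envelope membrane as KEA1, differed in neither genotype (log2 differences 0.45 in pdx1.3, limma adjusted p = 0.0877, and 0.19 in WT, adjusted p = 0.495). KEA4 was lower in leaves than in roots in both genotypes (-1.19 and -1.27). KEA6 was lower in pdx1.3 leaves than in pdx1.3 roots (-0.66, adjusted p = 0.0195), a call that was lost without pdx1.3 leaf replicate 3 (0.0528) or pdx1.3 root replicate 2 (0.0941).

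CNGC2 and CNGC1 were higher in leaves. CNGC2 averaged 319 ± 64.9 in leaves and 27.5 ± 1.21 in roots of pdx1.3, and 307 ± 64.1 in leaves and 26.8 ± 2.6 in roots of WT (SD, n = 3, log2 differences 2.93 and 2.90). CNGC1 averaged 249 ± 21.5 in leaves and 64.8 ± 5.8 in roots of pdx1.3, and 174 ± 9.92 in leaves and 61.3 ± 10.7 in roots of WT (1.71 and 1.31).

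The KUP/HAK/KT transporters split between the organs. KUP6 was lower in leaves, at 83.8 ± 14.2 against 224 ± 25.7 in roots of pdx1.3, and at 40.3 ± 7.47 against 271 ± 21.8 in roots of WT (SD, n = 3, log2 differences -1.27 and -2.36). KUP10 was also lower in leaves, by a log2 difference of -0.74 in pdx1.3 and an estimated 3.08-fold in WT, where its leaf signals were called absent. KUP4 was lower in WT leaves than in WT roots (86.9 ± 1.58 and 178 ± 21.9, log2 difference -0.91, limma adjusted p = 0.000856) and gave no call in pdx1.3 (125 ± 34.3 and 173 ± 37.6, adjusted p = 0.0592). KUP2, KUP3 and KUP11 were higher in leaves in both genotypes, by 2.78-fold, 2.62-fold and 2.46-fold in pdx1.3 and 1.63-fold, 1.62-fold and 1.78-fold in WT. KUP1, KUP5, KUP7 and HAK5 differed in neither.

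**Figure D4:**
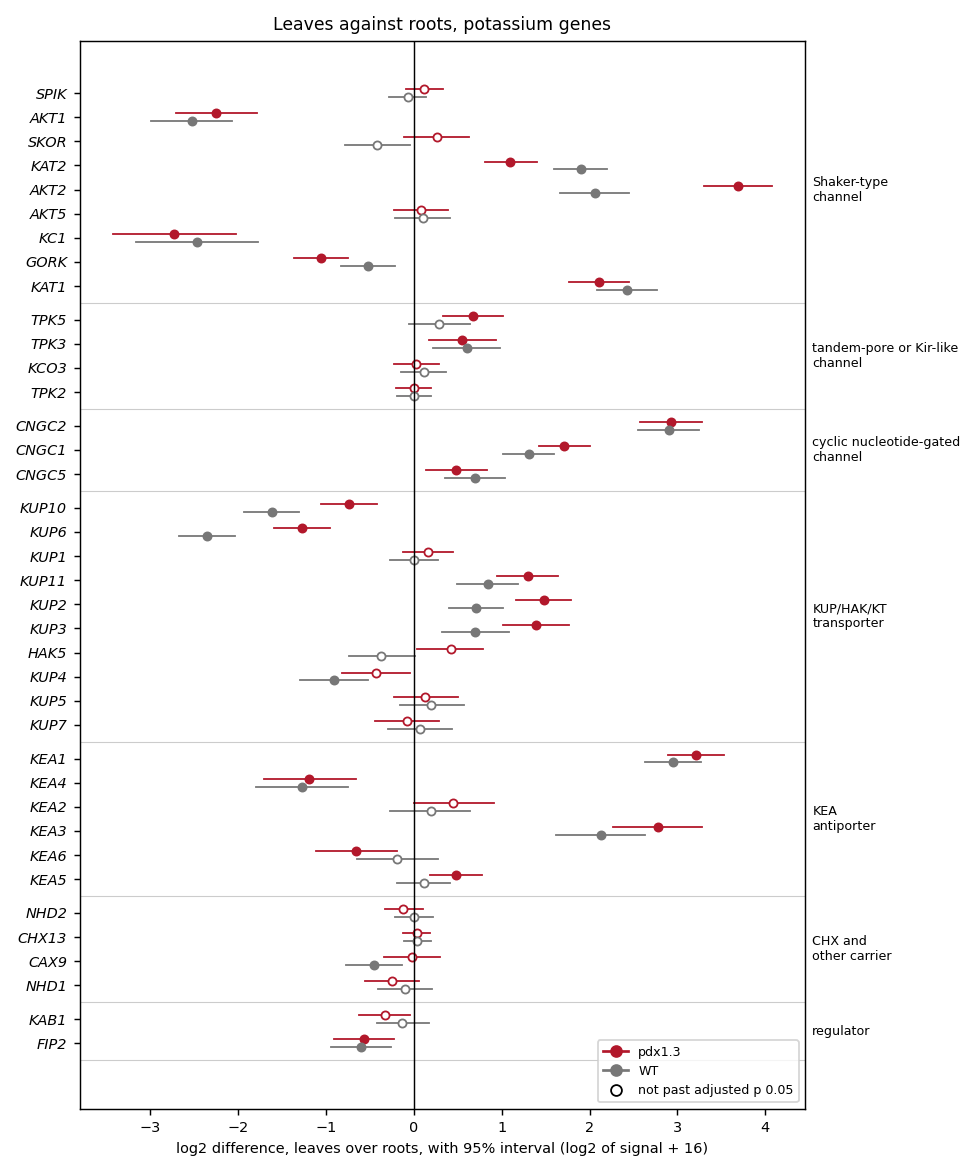
Log2 difference of leaves over roots (horizontal axis, log2 of signal + 16) in pdx1.3 and in WT for the potassium genes, grouped by role down the page. Points are limma estimates with 95% intervals, filled where the adjusted p was under 0.05; AKT2, KEA1, CNGC2, KEA3 and KAT1 lie farthest to the right and KC1 and AKT1 farthest to the left in both genotypes.

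The annotation's wording leaves out other genes of potassium transport, which were taken from lists of channels, carriers and regulators. Of 58 listed genes 57 were measured, and 25 of these are not among the 39. In leaves 7 of the 25 rose in pdx1.3 and 2 fell, in roots 1 fell, and the interaction passed for 5. The shares are 36% in leaves, beside 7.22% of all probe sets, 4% in roots, beside 0.809%, and 20% for the interaction, beside 1.87%. The lists were chosen with earlier results of these data known, so these shares do not test for an excess of calls.

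The 3 further KUP/HAK/KT genes rose in leaves. KUP9 had 125, 195 and 218 in pdx1.3 leaves, against 79.1, 78.1 and 80.5 in WT leaves (log2 change 1.00, SE 0.18, limma adjusted p = 0.00471). KUP12 had 119, 133 and 139 in pdx1.3 leaves, against 82.3, 72 and 62.4 in WT leaves (0.74, SE 0.13, adjusted p = 0.00381). KUP8 had 225, 224 and 268 in pdx1.3 leaves, against 120, 147 and 126 in WT leaves (0.80, SE 0.20, adjusted p = 0.0322), and lost its call in the 6 fits that left out 1 leaf array (highest adjusted p = 0.103). No leaf array of pdx1.3 overlapped with WT in these genes. Over the whole family of 13, 7 rose in leaves with a median log2 change of 0.551, and none changed in roots, where the median was -0.0719. Of all probe sets 4.7% rose in leaves and 0.809% changed in roots. The interaction passed for KUP9 (1.38, adjusted p = 0.0169) and KUP12 (0.88, adjusted p = 0.026), the first lost without pdx1.3 root replicate 1 or WT root replicate 2, the second lost in 8 of the 12 fits without 1 array (highest adjusted p = 0.0766).

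The vacuolar antiporters NHX1 and NHX2, which move potassium or sodium into the vacuole in exchange for protons, also rose in leaves. NHX2 had 97.3, 78.8 and 89.8 in pdx1.3 leaves, against 39.2, 35 and 44.4 in WT leaves (log2 change 0.91, SE 0.16, limma adjusted p = 0.00453). NHX1 had 231, 284 and 269 in pdx1.3 leaves, against 142, 196 and 166 in WT leaves (0.60, SE 0.15, adjusted p = 0.0276), a call lost without pdx1.3 leaf replicate 2 or 3 or WT leaf replicate 1 or 3 (highest adjusted p = 0.0991). Both genes were higher on each pdx1.3 leaf array than on any WT leaf array.

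Of the regulators, PP2CA, a phosphatase of abscisic acid signalling that binds AKT2, had the largest change. Its signals were 838, 1300 and 977 in pdx1.3 leaves, against 145, 308 and 272 in WT leaves (log2 change 2.07, SE 0.25, limma adjusted p = 0.000437), and the groups were far apart. CIPK6, a kinase that brings AKT2 to the plasma membrane together with the calcium sensor CBL4, had 1162, 1151 and 1078 in pdx1.3 leaves, against 753, 648 and 779 in WT leaves (0.63, SE 0.12, adjusted p = 0.00839). CBL4 fell, with 23.8, 28 and 14.2 in pdx1.3 leaves, against 61.6, 54 and 53.7 in WT leaves (-0.95, SE 0.18, adjusted p = 0.0082). So the phosphatase and the kinase were higher and the calcium sensor lower on all pdx1.3 leaf arrays than on any WT leaf array. In roots CBL4 averaged 58.3 ± 10.9 in pdx1.3 and 111 ± 25.7 in WT (SD, n = 3), also without overlap. Its root change did not pass the test (-0.76, limma adjusted p = 0.0959), nor did its interaction (-0.19, adjusted p = 0.85). The interaction passed for PP2CA (1.71, adjusted p = 0.0275) and CIPK6 (0.75, adjusted p = 0.0486), and was called in 6 and in 1 of the 12 fits that left out 1 array.

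The plasma membrane proton pump AHA2, whose gradient drives potassium uptake, fell in leaves. It had 205, 211 and 223 in pdx1.3 leaves, against 1028, 420 and 385 in WT leaves (log2 change -1.31, SE 0.27, limma adjusted p = 0.0119), and without WT leaf replicate 1 the change was -0.87. CIPK23, the kinase that activates AKT1, gave no call in either organ (54 ± 4.11 in pdx1.3 leaves and 46.5 ± 12.8 in WT leaves, 176 ± 0.216 in pdx1.3 roots and 223 ± 45.9 in WT roots, SD, n = 3). In roots the xylem-loading carrier NPF7.3 fell, with 505, 583 and 647 in pdx1.3 roots, against 1073, 1015 and 1203 in WT roots (-0.91, SE 0.16, adjusted p = 0.0221). Its groups were far apart, yet the call was lost in 5 of the 12 fits, those without pdx1.3 root replicate 1 or 2 or any 1 WT root array (highest adjusted p = 0.145). Its interaction was 1.06 (adjusted p = 0.0368), called in 3 of the 12 fits.

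**Figure D5:**
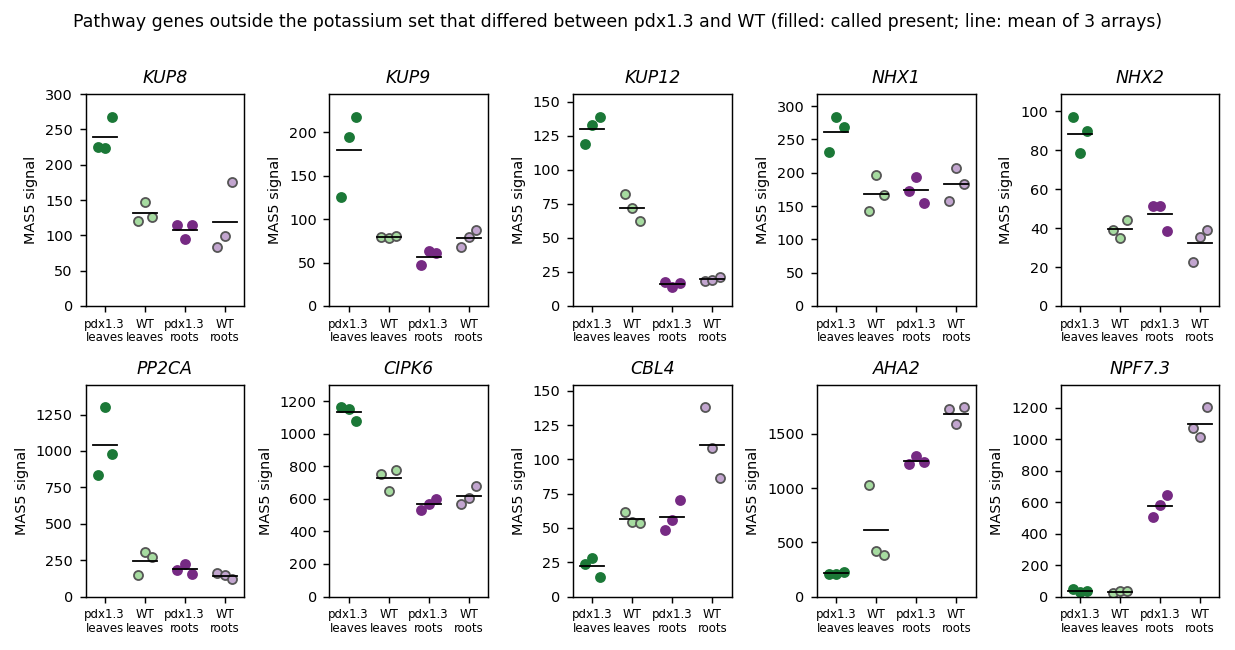
MAS5 signal (vertical axes, linear, starting at 0) of the 10 listed genes outside the 39 that differed between pdx1.3 and WT in leaves or in roots, by group along the horizontal axes. Points are single arrays, filled where the probe set was called present, and bars are means of 3 arrays; NPF7.3 differs in roots, at 505 to 647 against 1015 to 1203, and the other 9 in leaves.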

How the data were processed

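Total RNA of leaves and roots was hybridised to ATH1 arrays. The authors deposited 1 intensity per probe set and array, the MAS5 signal made in GCOS, per the submitters' processing notes (version not given in the sources used here), scaled per array with factors of 0.27 to 0.53 per the file headers. The deposited table also holds the authors' other columns, namely present, marginal or absent calls, and a GCOS signed fold score with counts of array pairs called increased or decreased. Signals are on a linear scale, and the number of arrays limits precision.

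The constant 16 was added before log2. limma 3.58.1 in R 4.3.3 was fitted to all 12 arrays (4 group means, empirical Bayes with an intensity trend), with Benjamini-Hochberg adjustment over 22746 non-control probe sets. This step was checked on simulated data. Alternatives were the constant, quantile normalisation, median centring, a detection filter, no trend, the series matrix values, a replicate block, fits of 1 organ and leaving out each array.

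The genes and lists were chosen with earlier results of these data known. Full statistics were planned for each potassium gene past the test in leaves, roots or the interaction, for the 6 largest organ differences each way among genes above the array median, for PDX1.3 and for listed pathway genes past the test in leaves or roots. Signals were planned for the brightest gene of each role in each organ. Other named genes, such as GORK, SKOR, KUP4, KEA3, TPK3, HAK5 and CIPK23, were chosen after their values were seen. Roles were assigned by hand. All 39 genes were found in the RefSeq gene table. The values of 1 of the 39 genes are not reported here, singly or in figures; it is included in the counts and medians.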

Additional observations from a re-analysis of the deposited data

Results flagged for a closer look

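The pdx1.3 change differed between leaves and roots for 2 of the 39 potassium genes (5.13%), by limma's test of the difference itself, beside 1.87% of all 22746 probe sets. For AKT2 the leaf change minus the root change was 1.64 on the log2 scale (95% interval 1.08 to 2.19, adjusted p = 0.00853), and all root signals of AKT2 were called absent. For KUP6 it was 1.09 (95% interval 0.64 to 1.54, adjusted p = 0.021), with signals called present in both organs. For KUP6 every pdx1.3 leaf array was above, and every pdx1.3 root array below, the WT arrays of the same organ, while the root change alone did not pass the test (adjusted p = 0.902).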

How the results depend on the processing

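The leaf count of 8 was 5 with each array centred on its median, 4 without both leaf arrays numbered 1, 2 in a fit of only the 6 leaf arrays (AKT2 and KUP2, adjusted p = 0.0252 each) and 1 when at least a 2-fold change was also required; leaving out 1 array gave 5 to 9. Over all probe sets the fit of 6 leaf arrays called 516, against 1642 with 12 arrays, and leaf calls split into 1070 higher and 572 lower as deposited, 942 and 674 after quantile normalisation, and 840 and 841 after centring. The root count was 0 under every alternative run. The interaction count of 2 was 4 with only probe sets called present on all arrays of a group, and leaving out 1 array gave 1 to 4, with 1 without pdx1.3 root replicate 2, WT leaf replicate 2 or WT root replicate 2 or 3, and 4 without pdx1.3 root replicate 3 or WT root replicate 1. Requiring at least 2-fold gave 15 organ differences in pdx1.3 and 12 in WT, and leaving out 1 array gave 21 to 24 and 21 to 23. With the replicate number as a block the counts were 6 in leaves, 0 in roots, 2 for the interaction, 23 between organs in pdx1.3 and 23 in WT. Same-numbered pdx1.3 and WT arrays of an organ did not deviate together (r from -0.211 to -0.007). Such a check cannot tell whether the samples were handled in numbered pairs. No result changed direction under the alternatives run. Dim signals limit KUP10, KAT2 and the root values of AKT2. The causes of these differences were not tested.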
